A study of Mus musculus with 2 samples.

Results

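The strongest distal sites of open chromatin in the newborn mouse heart were described: 2495 peaks of DNase-seq that had a peak value of 80 or more in both libraries, overlapped by at least 1 bp between them, and had their centre more than 1 kb from every transcription start site (TSS) of the GENCODE vM21 annotation, on chromosomes 1 to 19. They were 3.15% of the 79197 distal peaks found in both libraries, and came from 111144 peaks paired between libraries in all. In DNase-seq, nuclei are digested with the nuclease DNase I, which cuts DNA that is not wrapped in nucleosomes more readily, and the cut ends are sequenced. Both libraries came from heart tissue of the mouse strain B6NCrl at postnatal day 0, and the labels name no treatment, allele, second tissue or second age. They are numbered as biological replicates 1 and 2, carry 1 donor label and separate biosample labels, and no sex was recorded. Because the peaks were selected on their values, those values are given as a description only, and no test was run on any quantity.

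Away from promoters, open chromatin marks enhancers, insulators and unannotated promoters, where transcription factors hold nucleosomes off the DNA. In heart muscle cells, enhancers of contractile genes are bound by MEF2 and GATA factors, by serum response factor (SRF, which binds the CArG box with its cofactor myocardin), by TEAD factors and by NKX2-5 and T-box factors. CTCF, a zinc finger protein that anchors chromatin loops and insulates domains, occupies strong sites that are largely shared between cell types. SP and KLF factors bind GC-rich sequence, chiefly at promoters.

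Sequences of 8 of these peaks are shown, on the plus strand of mm10 over the peak of replicate 1, because they carry the kinds of motif by which the strong peaks differed from the others. The first holds the highest mean value of all, upstream of Fos, which encodes an AP-1 transcription factor induced within minutes of a stimulus, and the second stands upstream of Fbrs. In both, capitals mark SP/KLF matches (GGGCGG on either strand), and in the Fos peak also an E-box CACGTG.
Fos, chr12:85455276-85455425, value 132 in replicate 1 and 124 in replicate 2: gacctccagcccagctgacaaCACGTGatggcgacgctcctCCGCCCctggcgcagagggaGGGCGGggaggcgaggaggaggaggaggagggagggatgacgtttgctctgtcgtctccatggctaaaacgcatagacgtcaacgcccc
Fbrs, chr7:127477976-127478125, values 124 and 125: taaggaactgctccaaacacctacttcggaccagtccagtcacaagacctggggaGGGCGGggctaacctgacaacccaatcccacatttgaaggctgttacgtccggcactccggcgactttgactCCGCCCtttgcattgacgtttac

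Next are 4 peaks near heart muscle genes, with capitals on a MEF2 match (Myh7 first peak, Jph2) or an SRF CArG box (Myh7 second peak, Mb). Myh7 encodes the slow, beta myosin heavy chain of the fetal ventricle, Jph2 encodes the junctophilin that ties the sarcoplasmic reticulum to the T-tubules, and Mb encodes myoglobin.
Myh7, chr14:55003976-55004125, values 112 and 98: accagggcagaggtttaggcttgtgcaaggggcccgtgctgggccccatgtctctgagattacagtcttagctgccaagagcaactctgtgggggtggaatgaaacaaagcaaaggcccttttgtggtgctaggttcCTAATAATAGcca
Myh7, chr14:54996896-54997045, values 96 and 102: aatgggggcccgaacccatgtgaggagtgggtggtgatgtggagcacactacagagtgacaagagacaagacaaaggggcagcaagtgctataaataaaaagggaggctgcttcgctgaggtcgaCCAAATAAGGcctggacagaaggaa
Jph2, chr2:163392576-163392725, values 107 and 93: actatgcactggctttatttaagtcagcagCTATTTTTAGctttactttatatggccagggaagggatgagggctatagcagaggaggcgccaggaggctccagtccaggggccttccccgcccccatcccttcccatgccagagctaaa
Mb, chr15:77037516-77037665, values 107 and 90: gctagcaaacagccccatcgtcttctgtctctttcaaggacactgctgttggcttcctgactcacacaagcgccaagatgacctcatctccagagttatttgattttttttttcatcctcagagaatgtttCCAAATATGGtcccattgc

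The last pair are the highest strong peaks that hold the CTCF consensus, which were scarce, with the match in capitals. The Bcas1 peak carries it on the minus strand.
Ccne1, chr7:38084996-38085145, values 114 and 120: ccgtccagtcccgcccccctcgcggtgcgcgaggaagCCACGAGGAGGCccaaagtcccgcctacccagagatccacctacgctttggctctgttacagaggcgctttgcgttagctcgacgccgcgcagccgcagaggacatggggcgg
Bcas1, chr2:170319316-170319465, values 115 and 112: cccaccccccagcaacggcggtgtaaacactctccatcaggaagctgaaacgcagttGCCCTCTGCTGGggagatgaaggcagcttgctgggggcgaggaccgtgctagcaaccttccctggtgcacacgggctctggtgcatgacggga

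The peak value is a whole number that the authors attached to each 150 bp peak, and the highest one listed anywhere was 148. Replicate 1 listed 160646 peaks and replicate 2 listed 141265 on chromosomes 1 to 19, and no file or label used here states a read total. Depth is therefore unknown for both, and whether the value was scaled to depth is not stated. The tissue label was checked against promoter peaks, within 500 bp of a TSS. Both libraries had one at 23 of 25 sarcomere genes, but at 1 of 12 hepatocyte, 1 of 11 lymphoid and 1 of 11 macrophage genes. Of neuronal genes 6 of 11 had one as well, and of erythroid genes 3 of 9. Counts as high as that of the sarcomere list were found for immediate-early (16 of 16) and fibroblast genes (15 of 16). The share over all protein-coding genes is not given, so the check is a rough one. Heart tissue holds several cell types, and fewer cells with a site and a lower signal per cell cannot be told apart.

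Among the 2495 strong distal peaks the median value was 96 in replicate 1, with a range of 80 to 136, and 89 in replicate 2, with a range of 80 to 127. In the other 76702 paired distal peaks the medians were 40 and 36. The value was higher in replicate 1 for 1915 strong peaks (76.8%), higher in replicate 2 for 470 and equal for 110. Replicate 2 minus replicate 1 had a median of -6 and an SD of 7.47 over peaks, and the median in the other distal pairs was -4. Both groups thus lay lower in replicate 2, and since the levels of the groups differ, the size of these differences is not compared. The 2 calls often coincided in position: 1076 peaks (43.1%) had the same start in both libraries, 88.2% were shifted by at most 20 bp, which is the grid on which all starts lie, and the largest shift was 140 bp.

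**Figure D1:**
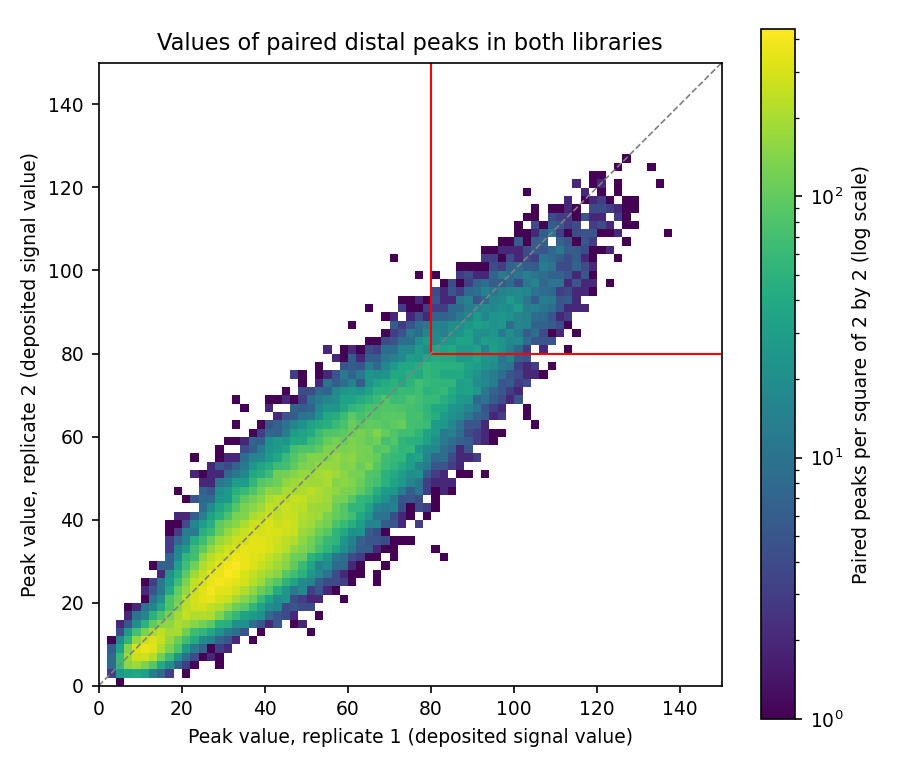
Values of the 79197 paired distal peaks in replicate 1 (horizontal) and replicate 2 (vertical), coloured by the number of pairs in each square of 2 by 2 value units on a log colour scale. Red lines at 80 bound the 2495 strong peaks, and most of them lie below the dashed line of equal values, since 1915 were higher in replicate 1.

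The threshold fell on unlike places of the 2 lists. In replicate 1, 4849 distal peaks reached 80, of which 2495 (51.5%) were selected. Another 2334 had a partner under 80 in replicate 2, with a median of 72. In replicate 2, 2807 distal peaks reached 80 and 88.9% of them were selected, while 296 had a partner under 80 in replicate 1, with a median of 76. In each library 4 more had a partner of 80 or more that lay within 1 kb of a TSS. Only 16 strong distal peaks of replicate 1 and 12 of replicate 2 had no partner at all, so nearly every strong site was called in both libraries. Just inside the threshold stood several tied peaks with 80 in both libraries. Those near Acadl, Ctse and Timp2 are examples, and others lay near Rad51b, Ly86 and Tmem184b. Just outside stood peaks near Mical2, with 103 and 79, Esrrg, with 102 and 79, and Rad51b, with 102 and 79. These, too, are examples, since many further pairs lay close to the threshold.

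The 10 highest peaks by mean value lay near Fos, Zfp869, Sin3a, Fbrs, Sptbn1, Aida, Mtfp1, Wnt7b, Frmd8 and Scd3. The Fos peak lay 18539 bp upstream of the Fos TSS in intergenic sequence. The next was 6287 bp upstream of Zfp869, which encodes a zinc finger protein, with values of 134 and 120. The peak near Sin3a, whose product is the scaffold of a histone deacetylase complex, had 126 and 127. It lay in intronic sequence 1531 bp downstream of the TSS. An intron of Sptbn1, which encodes beta spectrin, held a peak with 129 and 117 at 36926 bp from the nearest protein-coding TSS. Aida had 136 and 108, the third largest gap between libraries among all strong peaks. A larger gap was that of an intronic peak nearest to Esrrg, which encodes an estrogen-related receptor of oxidative muscle, with 112 and 80. Another was that of an exonic peak nearest to Plekhf1, with 115 and 84. In each of these 3 peaks the value was higher in replicate 1.

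Several of the highest peaks stood at transcript starts that GENCODE vM21 does not annotate. A start of the RefSeq annotation lay 57 bp from the centre of the Zfp869 peak, 213 bp from that of Sin3a, 364 bp from that of Fbrs, 55 bp from that of Wnt7b and 77 bp from that of Scd3. Of these, the Zfp869 peak alone was within 500 bp of a known RefSeq transcript, at 109 bp, and the other starts belong to predicted models. Over all strong distal peaks, 145 (5.81%) lay within 500 bp of any RefSeq start and 33 (1.32%) within 500 bp of a known one. In the other distal pairs the shares were 2.16% and 0.201%. Most of the strong peaks were thus distal by both annotations, and 2281 of them were more than 1000 bp from every RefSeq start.

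Strong distal peaks were placed over gene bodies much like the rest. Introns held 1292 of them (51.8%, 95% Wilson interval 49.8 to 53.7), exons 137 (5.49%) and intergenic sequence 1066 (42.7%), against 52.0%, 5.49% and 42.5% of the other distal pairs. Introns and exons were those of any annotated gene, so an intronic or exonic peak need not lie in the gene named for it. The strong peaks differed in distance. The median distance to the nearest protein-coding TSS was 13583 bp (95% interval 12738 to 14454), against 22933 bp for the others. A distance of at most 2 kb was found for 11.7% and 6.21%, and one over 100 kb for 8.78% (219 peaks) and 18.2%. Intervals here and below cover counting error only, treat peaks as independent, which neighbours are not, and say nothing of the spread between animals.

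The 5 strong peaks farthest from a protein-coding TSS were all intergenic, though not all were far from other transcript starts. One was 1103415 bp upstream of Flrt2, with values of 99 and 100. A pair lay 889308 bp and 742528 bp from Gsdmc, the first with 87 and 82 and both a MEF2 and a TEAD match, the second with 102 and 88. The remaining ones were 750230 bp from Tmem182, with 91 and 81, and 701256 bp from Inhba, with 81 and 83. RefSeq starts of any kind lay 34765 bp and 4533 bp from the Gsdmc pair and 17670 bp from the Tmem182 peak. For the Inhba and Flrt2 peaks the nearest ones were 454382 bp and 661473 bp away. Nearness in sequence does not show that a peak acts on the gene named.

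The strong peaks had a higher content of G and C and a lower share in repeats. Mean GC content was 54.9%, against 50.1% in the other distal pairs and 64.8% in promoter pairs of the same strength, that is the 7883 pairs of 80 or more that lay within 500 bp of a TSS. The CpG dinucleotide is depleted in most of the genome, and its observed over expected ratio had a median of 0.308 (95% interval 0.290 to 0.319), against 0.220 and 0.846. A CpG-rich sequence, with a ratio over 0.6 and GC over 50%, was found in 401 strong distal peaks (16.1%), 3.85% of the other distal pairs and 81.5% of strong promoter pairs. The strong distal peaks thus lay between the other distal peaks and promoters, and nearer to the former. Soft-masked repeat covered more than 50% of the peak in 15 strong peaks (0.601%) and in 5.54% of the others.

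Hotspots, the wider regions of raised cleavage listed beside the peaks, followed the peak value. The highest listed −log10 q, exactly 100, applied to the hotspots of both libraries for 2377 strong peaks (95.3%), against 26.7% of the other distal pairs. Hotspot and peak values come from the same reads, so this is no independent evidence of strength. The hotspot around a strong distal peak had a median width of 575 bp in replicate 1 and 575 bp in replicate 2, against 254 and 245 bp around the others and 851 and 880 bp around strong promoter pairs. Strong peaks also had closer company: a median of 2 other paired distal peaks lay within 10 kb, against 1, and 14.0% had none, against 34.1%.

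Motifs were searched as consensus sequences on both strands of each peak, and a match is a description of the letters, not a bound site. The MEF2 consensus was found in 142 strong peaks (5.69%, interval 4.85 to 6.67), against 2.46% of the other distal pairs, a ratio of 2.32. The share was higher on 19 of 19 chromosomes. In windows of the same length 1000 bp away from the strong peaks it was 0.381%, and in strong promoter pairs 0.533%. MEF2 sites are rich in A and T while strong peaks are rich in G and C, so the shares were also taken within 2 classes of GC content. Among peaks of 50% GC or less the share was 10.9% of 696 strong and 3.84% of other peaks, and above 50% it was 3.67% of 1799 and 0.965%. The gap was therefore present in both classes of composition. The MEF2-holding peaks had a median of 95 in replicate 1, with a range of 80 to 120. In replicate 2 the median was 89 and the range 80 to 112. These medians were much like those of all strong peaks, whose highest values, 136 and 127, were higher. Of the MEF2-holding peaks, 54.9% were in introns.

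The CArG box of SRF was found in 60 strong peaks (2.40%, interval 1.87 to 3.08), against 0.93% of the others, 0.863% of strong promoter pairs and 0.541% of the flanks. Either MEF2 or CArG was present in 197 strong peaks (7.90%) and 3.37% of the others. Both were present in 5 of 2495 strong peaks and in 13 of 76702 others. The TEAD consensus (CATTCC) was found in 383 (15.4%, interval 14.0 to 16.8), against 12.1%. The motif of GATA factors (AGATAA) was found in 262 (10.5%, interval 9.36 to 11.8), against 9.62%, a share inside that interval. Within GC classes the GATA share was higher in strong peaks in both, at 17.8% against 12.7% at 50% GC or less and 7.67% against 6.35% above, while strong peaks as a whole have more GC. For NKX2-5 (TCAAGTG) the shares were 3.05% and 2.77%, and for T-box factors (AGGTGTG) 1.84% and 2.01%, in both cases with the second share inside the interval of the first. Within GC classes NKX2-5 stood at 4.60% against 3.26% at 50% GC or less and 2.45% against 2.25% above. T-box stood at 1.44% against 1.69% and at 2.00% against 2.35%. Intervals within GC classes are not given. The muscle factors thus did not move alike: MEF2 and CArG showed the largest ratios and TEAD a small one. GATA and NKX2-5 had higher shares within both GC classes, with no difference detectable over all peaks. For T-box factors, too, no difference over all peaks was detectable at this number of peaks.

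Motifs typical of promoters made up the other large group. SP/KLF (GGGCGG) was found in 430 strong distal peaks (17.2%, interval 15.8 to 18.8), against 5.33% of the others, again higher on 19 of 19 chromosomes, and 58.9% of strong promoter pairs. Within GC classes it was 3.30% against 1.74% at 50% GC or less and 22.6% against 9.20% above. The cAMP response element (TGACGTCA), bound by CREB and ATF factors, was found in 36 (1.44%), against 0.405%, and had the highest ratio among motifs with over 20 strong peaks, at 3.56. NFY (CCAATCA) was found in 104 (4.17%) against 1.65%, and ETS (CCGGAAG) in 66 (2.65%) against 1.29%. The E-box CACGTG, bound by USF, MYC and clock factors, was found in 156 (6.25%) against 3.24%. The higher ETS share was seen only above 50% GC, at 3.45% against 1.96%. At 50% GC or less it was 0.575% of strong and 0.667% of other peaks. The shares of CRE, NFY and the E-box CACGTG were higher in strong peaks in both GC classes. Unlike MEF2, each of SP/KLF, CRE, NFY, ETS and this E-box had a higher share in strong promoter pairs than in strong distal peaks. Peaks with SP/KLF lay closer to genes, with a median distance of 7918.5 bp, and 44.9% of them were CpG-rich.

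Other motifs bound by signal-dependent factors varied. The glucocorticoid response element (GNACANNNTGTNC), bound by the steroid receptors for cortisol and related hormones, was found in 43 strong peaks (1.72%, interval 1.28 to 2.31) against 0.688% and 0.140% of strong promoter pairs. AP-1 (TGANTCA) was found in 256 (10.3%, interval 9.13 to 11.5), against 8.53%, but was higher on only 11 of 19 chromosomes. MEIS (TGACAG) was found in 18.2% and 15.1%, and the E-box CAGCTG in 18.9% and 14.5%. The E-box CAGATG went the other way, with 9.98% against 13.2%, and so did RUNX (TGTGGTT), with 2.16% against 3.13%, and C/EBP (TTGCNNAA), with 5.57% against 6.51%, whose interval of 4.74 to 6.54 holds the second share.

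CTCF had a lower share in strong peaks. Its consensus (CCANNAGNNGGC) was found in 109 strong distal peaks (4.37%, interval 3.63 to 5.24), against 9.66% of the other distal pairs, and the share was lower on 19 of 19 chromosomes. In the flanks it was 1.34%, so the share in strong peaks lay between that of their surroundings and that of weaker peaks. The gap was present in both GC classes, at 3.02% against 9.64% and at 4.89% against 9.69%. REST, a repressor of neuronal genes whose long site (CAGCACCNNGGACAG) leaves little doubt when it matches, was found in 1 strong peak (0.0401%), with values of 99 and 92, and in 0.248% of the others. No strong peak held both the CTCF and the MEF2 consensus: the share of MEF2 was 0% among the 109 peaks with CTCF, beside 5.69% of all strong peaks. The joint share in the other distal pairs is not given, so whether this is particular to strong peaks was not tested.

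**Figure D2:**
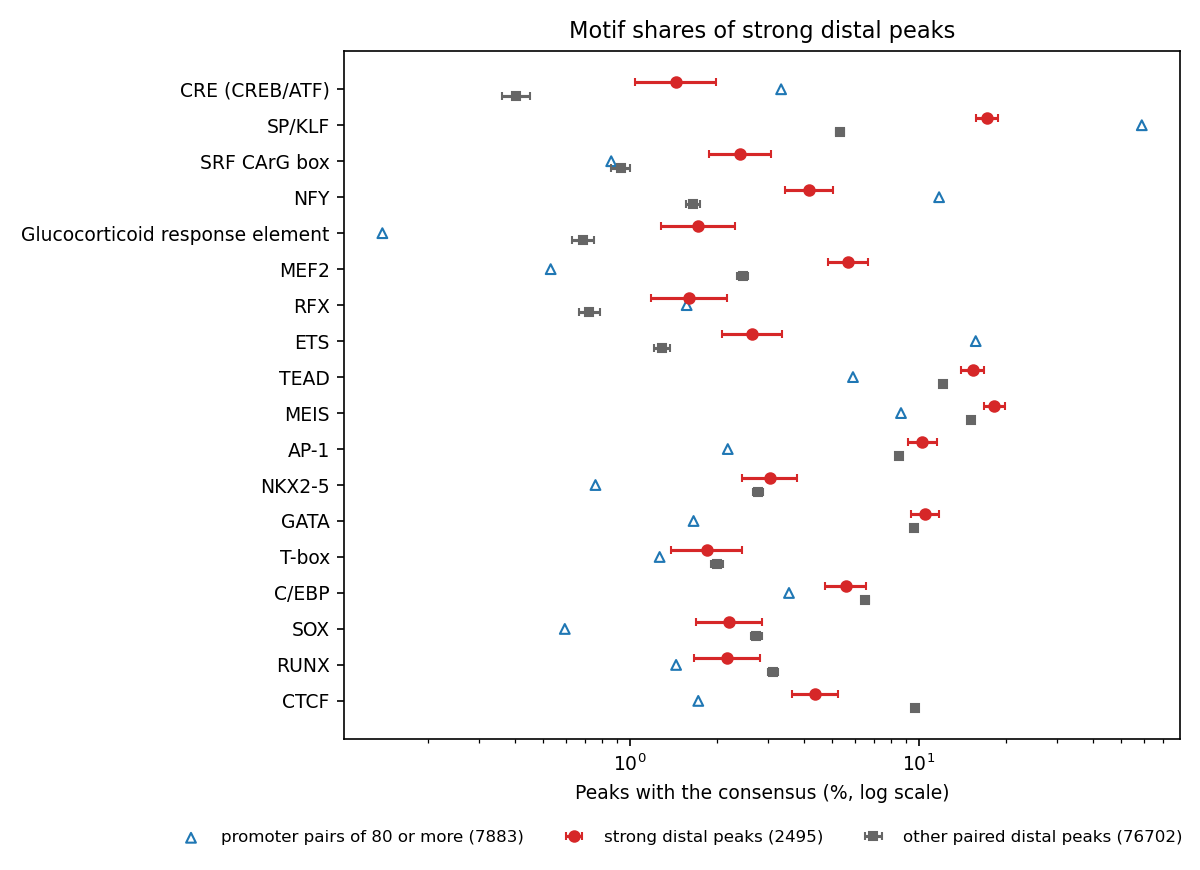
Share of peaks with each of a selection of the motifs searched (log axis), for the strong distal peaks (red circles), the other paired distal peaks (grey squares), both with 95% Wilson intervals, and strong promoter pairs (open triangles), ordered by the ratio of the first to the second. Of the motifs shown, CRE, SP/KLF and CArG stand at the top and CTCF at the bottom, where 4.37% of strong peaks compare with 9.66% of the others.

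A count of all words of 8 letters, made without any motif in mind, gave GC-rich words and words like the MEF2 site as its first 10. Some of the GC-rich words, such as CTCCTCCC and GCCCCTCC, hold no SP/KLF consensus. Words of CRE, NFY, ETS or the E-box CACGTG were not among the first 10, and GC content was not matched. The word with the largest gap was CCCCGCCC, an SP/KLF site, in 5.45% of strong peaks and 1.63% of the others. The next was TAAAAATA, the core of a MEF2 site, in 7.13% and 3.65%, and AAAAATAG and ATTTTTAG, which overlap it, were also among the first 10. At the other end stood runs of A (AAAAAAAA, 0.842% and 2.49%) and CCACTAGA, which lies within the CTCF site, in 0.521% and 2.15%. Words were ranked on the same peaks in which their shares are given, so these shares are a description.

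The share of a motif did not always follow the value evenly, as the shares in classes of 10 value units within each library show. CTCF rose from 0.541% of distal peaks of replicate 1 with a value under 10 to 12.8% at 50 to 59, and then fell to 4.84% at 80 to 89 and 1.01% at 110 or more. In replicate 2 the same points were 0.430%, 15.8%, 7.05% and 1.82%. Both libraries therefore had their CTCF maximum in the middle of the range, well under the threshold of 80. MEF2 rose from 0.150% to 6.21% at 80 to 89, 6.16% at 90 to 99 and 6.21% at 100 to 109 in replicate 1, and was 3.69% above that. In replicate 2 it peaked at 7.23% at 90 to 99 and stood at 3.42% and 0.909% in the highest classes, the last of which is 1 of 110 peaks. SP/KLF rose with each class, in replicate 1 from 1.80% to 22.5% and in replicate 2 from 1.76% to 34.5%. In the class of 110 or more, 67 of 298 distal peaks of replicate 1 and 38 of 110 of replicate 2 held SP/KLF, so most of the highest peaks did not. The MEF2 share was level from 80 to 109 in replicate 1, and in replicate 2 it was lower at 100 to 109 than at 90 to 99, with overlapping intervals.

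**Figure D3:**
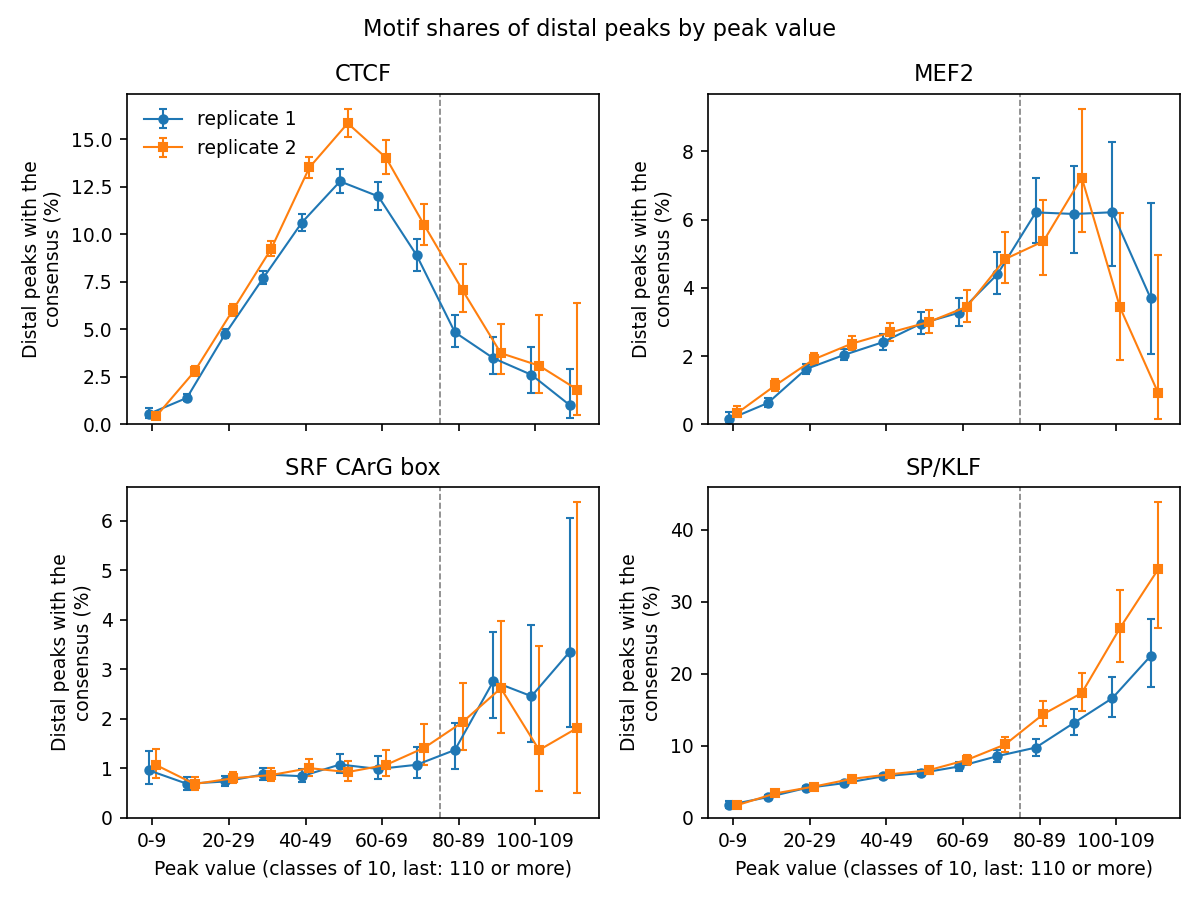
Share of distal peaks with the CTCF, MEF2, CArG and SP/KLF consensus by peak value in classes of 10, for replicate 1 (circles) and replicate 2 (squares) separately, with 95% Wilson intervals and a dashed line at 80. CTCF is highest at 50 to 59 in both libraries (12.8% and 15.8%), and SP/KLF rises to 22.5% and 34.5% in the last class.

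Within the strong peaks, values differed with composition and motif. Of the 401 CpG-rich ones, 153 (38.2%) had a mean value of 100 or more, against 573 (23.0%) of all strong peaks, and 30.5% of those with SP/KLF, 13.4% of those with MEF2 and 11.0% of those with CTCF. The 36 peaks with a CRE had medians of 101 and 96 and 17 of them had a mean of at least 100. By place the medians hardly differed: in replicate 1 the median was 96 in introns, exons and intergenic sequence, and in replicate 2 it was 88.5, 89 and 90. A mean of 100 or more was found for 20.4%, 23.4% and 26.0% of them in the same order. Among peaks more than 50 kb from a protein-coding TSS the medians were 96 and 88, and 6.28% held MEF2 and 10.04% SP/KLF, while among those within 2 kb 3.75% held MEF2 and 31.1% SP/KLF.

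Where the motif sat in the peak differed for CTCF. Its matches lay within 25 bp of the peak centre in 30.6% of 111 matches in strong peaks and in 61.2% of 7510 matches in the others, with median distances of 35 and 20 bp. For MEF2 the shares were 49.3% of 148 and 55.5% of 1902 matches, with medians of 26.5 and 22 bp, and for CArG 36.1% of 61 and 39.3% of 715. CTCF matches in strong peaks were therefore less central than in the other peaks, while MEF2 matches were gathered at the centre in both. The example from Ccne1 shows this, with its match at bases 38 to 49 of the peak, and that from Bcas1, at bases 58 to 69, is closer to the middle.

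**Figure D4:**
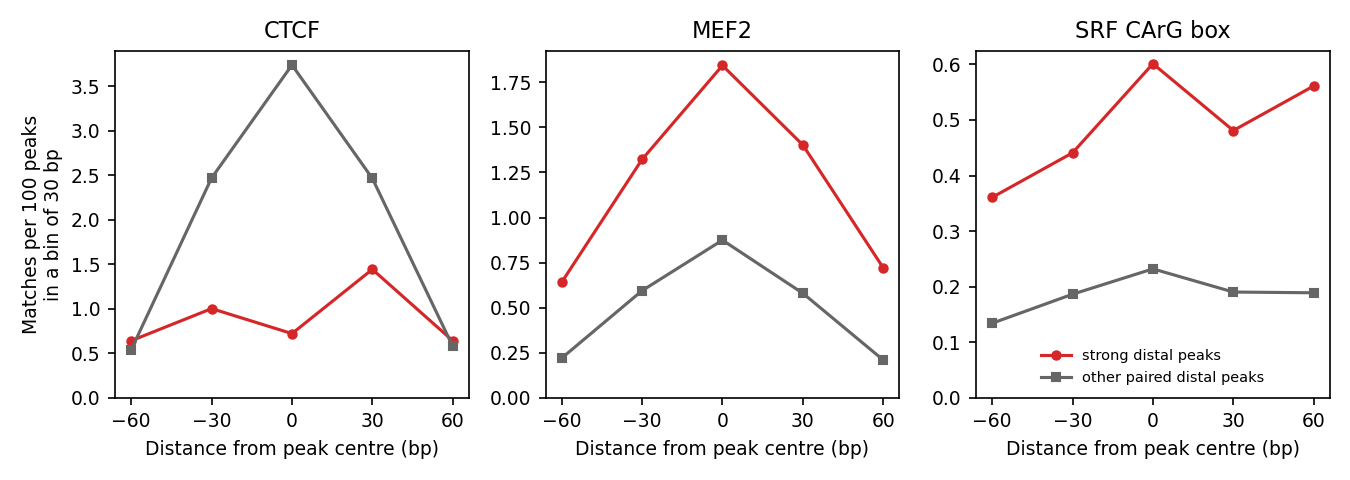
Matches per 100 peaks in bins of 30 bp by distance from the peak centre, for the strong distal peaks (red) and the other paired distal peaks (grey). CTCF matches in the other peaks rise to 3.74 per 100 in the central bin against 0.721 in strong peaks, and MEF2 matches are highest in the central bin in both groups, at 1.84 and 0.875.

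Among the gene lists examined, strong distal peaks were most frequent around genes of heart muscle. Of 20807 protein-coding genes, 3306 (15.9%) had at least 1 strong distal peak within 50 kb of a TSS. Among lists of genes drawn up with earlier results of these data known, the counts were 12 of 20 cardiac transcription factors, 14 of 25 sarcomere and Z-disc genes, 11 of 20 ion channel and calcium handling genes and 9 of 20 genes that serve muscle mitochondria or the oxidation of fatty acids. Endothelial genes had 7 of 20, smooth muscle and pericyte genes 4 of 12, fibroblast genes 3 of 16 and epicardial genes 1 of 10. Immediate-early genes, which switch on fast after stimulation, had 7 of 16. Lists foreign to the heart had 1 of 12 for hepatocytes, 0 of 11 for neurons and 1 of 11 for lymphoid cells, and erythroid genes 0 of 9. Macrophage genes had 3 of 11 (27.3%), above the share of all genes. Genes with several TSSs or in gene-dense sequence have more chance to hold a peak in reach, and the lists were not matched for this.

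**Figure D5:**
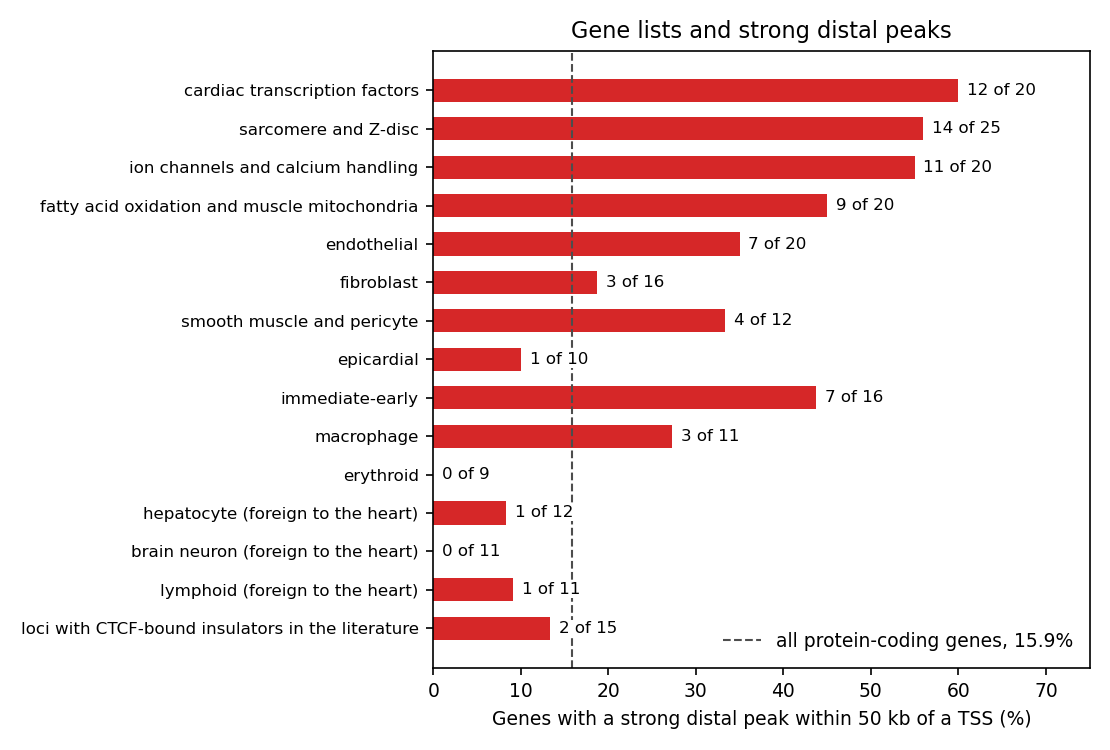
Share of the genes of each list with at least 1 strong distal peak within 50 kb of a TSS, with the count beside each bar, and a dashed line at the 15.9% of all protein-coding genes. The 4 heart muscle lists lie between 45% and 60%, and the neuronal and erythroid lists at 0.

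Among the cardiac transcription factors, Tead1, whose product binds the TEAD motif, had 3 strong peaks within 50 kb, all in intronic sequence. Their values were 116 and 108, 121 and 110, and 82 and 88, so the order of the libraries differed between them, and the last 2 of these held a TEAD match. Gata4 had a peak with 109 and 112 at 2660 bp from a TSS and another with 84 and 81 at 10800 bp. Meis1, which encodes a homeodomain partner of HOX proteins, had 1 with 108 and 113 at 1506 bp. Mef2c, the MEF2 gene of early heart development, had a peak in intronic sequence with 90 and 97 and a MEF2 match. Mef2d had a peak with 82 and 80 at 1601 bp, also with a MEF2 match.

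The sarcomere genes had the densest cover at Actn2, which encodes the alpha-actinin of the Z-disc, with 6 strong peaks within 50 kb. In replicate 1 they were 106, 86, 91, 113, 108 and 111, and in replicate 2 84, 81, 89, 101, 93 and 101. All 6 were higher in replicate 1, and the pair with the nearest TSS of another gene, Heatr1, is counted in. Myh7 had 3 upstream, with 96 and 102 at 2345 bp, 112 and 98 at 9425 bp, and 105 and 94 at 10045 bp. The first held a CArG box, the others a MEF2 and a TEAD match each, and the last also a GATA match. The same 3 lay between 30044 and 37744 bp from a TSS of Myh6, the alpha myosin heavy chain of the adult heart, and these data do not assign them to either gene. Xirp1 and Ldb3, whose products bind actin and the Z-disc, had MEF2-holding peaks with 92 and 91 and with 96 and 84.

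Of the calcium and channel genes, Jph2 had a pair of intronic peaks with a MEF2 match, 107 and 93 at 5298 bp and 105 and 93 at 34538 bp. Camk2d, which encodes a calcium-dependent kinase, had one with 99 and 92 at 41877 bp, also with MEF2. Atp2a2, which encodes the SERCA2 pump that refills the calcium store, had peaks with 112 and 94 and with 99 and 86. Pln, whose product inhibits that pump, had 1 intronic peak with 116 and 91 and a GATA match, 12716 bp upstream of its nearest TSS. Gja5, a connexin of the conduction system, had 1 with 108 and 101. In these channel genes each value named was higher in replicate 1. Over the 4 heart muscle lists, MEF2 or CArG was found in 2 of 24, 5 of 27, 3 of 19 and 1 of 9 strong peaks in the order given above, beside 7.90% of all strong peaks. The first count (8.33%) is near that share, and the numbers are too small to tell the lists from it.

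Among metabolic genes, some strong peaks lay nearer to a neighbour. The peak within 50 kb of Cpt2, with 118 and 106, was nearest to Slc1a7. That of Slc25a20, with 105 and 96, lay in intronic sequence nearest to Arih2. Mb was the nearest gene to an intronic peak with 102 and 87 and a GATA match, at 2252 bp. The CArG peak shown above lay 11466 bp from a TSS of Mb, in an intron nearest to Apol6. In the other cell types, Pecam1, an adhesion molecule of endothelium, had 92 and 89 and 82 and 87, both in intronic sequence. Notch1 had 87 and 90. None of the 10 strong peaks near endothelial genes held MEF2, CArG, GATA or TEAD matches, beside 5.69%, 2.40%, 10.5% and 15.4% of all strong peaks. At each of these shares taken alone 10 peaks can hold none, and a difference was not tested. Myocd, which encodes the SRF cofactor myocardin of heart and smooth muscle, had 117 and 97 and 106 and 94. Smtn, a smooth muscle cytoskeletal gene, had 98 and 94, 97 and 91, the second with a CArG box, and 94 and 80. Sema3d, the only epicardial gene reached, had 116 and 94, with a CArG box, and 108 and 96.

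Near several genes of other cell types, the gene closest to the strong peak was a different one. The 3 macrophage genes reached were Tyrobp, Cx3cr1 and Spi1, and their peaks were nearest to Lrfn3, to Xirp1 and to Mybpc3, of which the latter pair are heart muscle genes. Their values were 100 and 98, 94 and 84, and 87 and 85. The 2 strong peaks within 50 kb of Apoa1 had 108 and 83, in intronic sequence nearest to Sik3, and 95 and 90, at 1370 bp with the CTCF consensus. Those around Cd4 were nearest to Lag3 and Mlf2. The promoter peak counts of these lists are given above with the tissue check. Their part in the counts within 50 kb was not tested.

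The 17 strong peaks near immediate-early genes had a median of 100 for the mean over both libraries, against 96.25, 94, 92.5 and 96.5 in the heart muscle lists in the order above. At Fos, the peak 1659 bp from the TSS had 100 and 88, and that 11160 bp away had 101 and 95 and held a CArG box, beside the highest peak at 18539 bp. Nr4a1, an orphan nuclear receptor gene of the same class, had 115 and 121 at 13258 bp and 119 and 112 at 7838 bp. Jund, which encodes an AP-1 subunit, had 113 and 111, 88 and 89, and 81 and 83. SP/KLF was present in 9 of these 17 peaks, beside 17.2% of all strong peaks, and MEF2 in 0, beside 5.69%, a share at which 17 peaks can easily hold none. Of the 27 strong peaks near sarcomere genes, 3 held SP/KLF and 4 held MEF2.

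The strong peaks were spread over many genes. They were nearest to 1763 protein-coding genes, of which 1279 had 1 and 162 had 3 or more. On chromosomes they made up between 2.61% and 3.77% of the paired distal peaks, lowest on chromosome 5 and highest on chromosome 11. Within 10 kb of another strong peak lay 526 (21.1%, interval 19.5 to 22.7), in 235 groups, of which 194 were pairs, 33 held 3, 6 held 4 and 2 held 5 or more. The largest, of 8, lay around Kdm6b, which encodes a histone H3 lysine demethylase, on chromosome 11 between 69408676 and 69419065. Its values were 116, 98, 99, 89, 84, 118, 103 and 121 in replicate 1 and 101, 93, 93, 85, 86, 101, 103 and 117 in replicate 2. In the same order, a RefSeq start of any kind lay 878, 42, 101, 561, 62, 489, 9 and 800 bp from the peak centre. Each was thus within 1000 bp of such a start, while known RefSeq starts lay 743 bp away or farther. In 6 of the 8 the value was higher in replicate 1, in 1 it was equal and in 1 lower, and the highest of them lay 5316 bp upstream. After Kdm6b, the genes nearest to most strong peaks were Maml3, a Notch coactivator, and Tns1, which encodes the adhesion protein tensin, with 7 each.

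The strong peaks with CTCF named here were chosen after their values were seen. Of 15 genes at loci known for CTCF-bound insulators, 2 (Grb10 and Peg3, 13.3%) had a strong distal peak within 50 kb. Any paired distal peak in that reach was found for 12 of them. Over all protein-coding genes the share with a strong peak was 15.9%. The list holds noncoding genes and several genes of the same cluster, so these shares are not of like sets. The consensus was in 0 of the 7 peaks near Grb10 and Peg3. With 4.37% of all strong peaks holding it, 7 peaks are too few to show a difference. The highest with CTCF were those near Ccne1 and Bcas1, shown above, followed by Pnrc1, with 111 and 107 in an intron, Sox12, with 107 and 107 in an exon, and Stard10, with 105 and 101. CTCF-holding strong peaks were lower than the rest, with medians of 90 and 86, and 40.4% were in introns against 51.8% of all strong peaks. Peaks near Acadl and Ctse, just inside the threshold, also held it.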

How the data were processed

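DNase-seq peaks and hotspots of 2 libraries of newborn mouse heart were used. Each peak list deposited by the authors gives 1 signal value per 150 bp peak on mm10, with no normalization stated. The hotspots deposited beside them carry a −log10 q, which reaches 100. Per the deposited text files, each replicate was called on its own. The aligner, the caller, its filters and the depth were not given in the sources used here. No listed value exceeded 148.

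Peaks were paired one to one between libraries by overlap of at least 1 bp. Sequence came from GRCm38.p6, which has the primary sequence of mm10, read with pysam 0.24.0, and TSSs, exons and introns from GENCODE vM21; chromosome lengths were checked. Further transcript starts came from the RefSeq annotation of that build. Repeats are the soft-masked bases. Motifs were matched as consensus sequences on both strands of the peak of replicate 1 (38 forms, of which CTCF had 3). Analyses ran in Python 3.11.15 with numpy 2.4.6, pandas 2.3.3 and scipy 1.17.1, and the figures in matplotlib 3.10.9. Pairing and motif search were tested on simulated data. Shares have 95% Wilson intervals and medians order-statistic intervals, both for counting error only.

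Members, gene lists, motifs and thresholds were chosen with earlier results of these data known, so no test was run and nothing here is independent support. Named were the 10 highest peaks by mean value, the 3 just inside and outside the threshold, the 3 with the largest difference between libraries, the 5 farthest from a protein-coding TSS, the largest group by 10 kb gaps and up to 3 genes per list. Other peaks, including those with MEF2 or CTCF matches and the genes nearest to most peaks, were named after their values were seen. The threshold, the TSS distance, the overlap, the motif form and each library were varied. Chromosomes X and Y and contigs were left out of the rule.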

Additional observations from a re-analysis of the deposited data

Results flagged for a closer look

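On chromosome X, which the selection leaves out, 13 of 1687 paired distal peaks (0.771%) reached 80 in both libraries, with highest values of 115 and 110, against 3.15% on chromosomes 1 to 19. No sex was recorded for the samples. On chromosome Y, 0 of 29 paired distal peaks did.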

How the results depend on the processing

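Of 112 values recomputed under alternatives for 11 results, 58 stayed within the 95% interval (for the number of peaks, within 1.5 times) and 54 did not. The share with MEF2 stayed within it in every alternative tried, and the CTCF share stayed under the 9.66% of the other peaks in each one with this consensus.

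The number of peaks was 5323 at a threshold of 70 and 1071 at 90. At 70, 6.41% held CTCF and 13.5% SP/KLF, the median distance to a protein-coding TSS was 14472 bp, 89.8% lay in hotspots of the highest −log10 q, 27.8% within 10 kb of another, 28.0% of genes had one within 50 kb, and the median CpG ratio was 0.282. At 90, 3.27% held CTCF and 20.6% SP/KLF, 98.1% lay in such hotspots, 48.2% in introns and 16.2% near another, 8.05% of genes had one, and the CpG ratio was 0.341. With a TSS distance of 500 bp the median distance was 10711 bp, 23.6% were within 10 kb of another, 19.2% of genes had one, the CpG ratio was 0.333 and SP/KLF 20.6%. At 2000 bp the distance was 17158.5 bp, with 19.2% near another, 12.9% of genes and SP/KLF 15.3%. With protein-coding TSSs only, 49.2% were in introns, 23.0% near another, 17.6% of genes had one, the CpG ratio was 0.325 and SP/KLF 19.7%. At the same rank in both libraries (a threshold of 72 in replicate 2), hotspots stood at 92.9%, peaks near another at 24.4%, genes at 21.3%, the CpG ratio at 0.286 and SP/KLF at 14.5%.

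Without 1 of the replicates, the selection rests on the other list alone. The hotspot share then requires the highest −log10 q in that library only, not in both, so it is a looser measure than the main one. The number of peaks then was 2807 and 4849, CTCF 5.49% and 3.90%, introns 50.8% and 54.4%, distance 13730 and 15086 bp, hotspots 95.2% and 98.2%, repeats 0.321% and 0.660%, near another 22.3% and 27.2%, genes 17.5% and 25.3%, the CpG ratio 0.304 and 0.277, MEF2 5.52% and 6.04%, and SP/KLF 17.3% and 12.5%, without replicate 1 and without replicate 2. A looser CTCF form was found in 8.18% (12.9% of the others), a stricter one in 2.89% (6.27%), and the main form in the middle 100 bp in 3.13%. Introns of protein-coding genes only held 45.9%. Within 5 kb and 25 kb of another lay 15.9% and 32.4%, and within 25 kb and 100 kb of a TSS 9.77% and 26.1% of genes had a peak. Leaving out peaks within 1000 bp of RefSeq starts, added after the data were seen, left 2281 peaks with CTCF in 4.56%, MEF2 in 5.87% and SP/KLF in 16.0%. The alternatives on MEF2 and SP/KLF were also added then.

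No paired analysis was possible because there is 1 group. Depth is unknown for both libraries, so the threshold could not be set per read.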

Other observations

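RFX factors, known for genes of cilia and immune genes, had a consensus (GTNNCCNNNGNAAC) in 40 strong distal peaks (1.603%, interval 1.18 to 2.18), against 0.725% of the other distal pairs and 1.57% of strong promoter pairs. NRF1 (CGCATGCGC), a factor of mitochondrial and housekeeping promoters, was found in 13 (0.521%) against 0.106%. The PU.1 form (GAGGAAGT), bound in myeloid cells, went the other way, with 30 (1.202%) against 1.98%. The palindromic NFI form, the DR1 form of nuclear receptors and HNF1, a factor of liver and kidney, were each found in 0 of 2495 strong peaks, which allows a share of up to 0.154% by the Wilson interval. In the 76702 other distal pairs they were found in 70 (0.0913%), 14 (0.0183%) and 0. These forms were thus rare in both groups, and no difference can be read from them. ERR (TCAAGGTCA), the receptor family of oxidative metabolism, stood at 0.641% and 0.661%.

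Counts of 2 or more kinds of cardiac motif in 1 peak were 5.17% of strong peaks and 2.93% of the others, and 66.7% and 73.1% held none. Most strong peaks therefore held none of these consensus forms. Further genes nearest to 6 strong peaks each included Adamtsl4, Irf2bp2, Nfe2l3, Sipa1l2, Ski, Sox4 and Srl. Of these, Irf2bp2 had the highest median of mean values, 110.25, and Ski, a corepressor of TGF-beta signalling, the lowest, 87.25.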
